A study of Mus musculus and Homo sapiens with 32 samples.

Results

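Expanded potential stem cells (EPSC) were set against mouse embryonic fibroblasts (MEF) by the RNA stretches that an antibody to N6-methyladenosine (m6A) marked in their nuclei. The comparison takes 8 of the 32 libraries of the study: 2 m6A-CT and 2 input libraries of EPSC, and 2 m6A-CT and 2 input libraries of MEF, each from 100K nuclei. Its members are the peaks the authors listed for each cell type, 12183 for EPSC and 38205 for MEF, on the mouse build mm9. The peaks were chosen by cell type and not by value. The EPSC carry the cell line label E14 and the MEF the label CF1. No genetic change or drug is named for either in the labels, and all 4 m6A-CT libraries used the Synaptic Systems antibody.

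m6A-CT directs a transposase to RNA paired with cDNA where the antibody sits, and the input libraries were tagmented without antibody. Nuclei were taken in 0.015% Triton X-100 for 1 min from EPSC and in 0.2% NP-40 for 5 min from MEF, so the preparation cannot be told apart from the cell type. Only 1 list per cell type was analysed here, filed under the first m6A-CT library of its group, and it holds no value per library. No test between the cell types could therefore be made, and the intervals below cover the counting of peaks or genes alone. The depth of the libraries is not given in the sources used here. The whole MEF list is over 3 times as long as the EPSC list, so each count is also given with as many MEF peaks as EPSC has, the 12183 of highest -log10 q, which the text calls equal numbers. All EPSC peaks stay in that comparison. The weakest MEF peak in it had a -log10 q of 45.1, against 10.0 for the weakest EPSC peak, so the lists then differ in stringency.

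m6A is written into messenger RNA by a complex around the METTL3 and METTL14 proteins, is bound by YTH proteins and is known for marking RNAs for faster turnover. In textbook maps it lies mostly in long internal exons, around stop codons and in 3′ untranslated regions. Embryonic stem cells rely on it to clear transcripts of the pluripotent state. EPSC are stem cells held in a culture from which they can form embryonic and extraembryonic lineages. MEF are mesenchymal cells that make collagen, fibronectin and a contractile cytoskeleton. A peak is meant to need both the RNA and the mark. The control of the peak calls is not given, so the lists alone do not show that each peak carries the mark. A gene without a peak may be unmethylated or little expressed, which cannot be told apart in these lists.

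Genes could be named where a peak met an exon block of the study's C57BL/6 stem cell files, which gave 11139 genes. At least 1 gene was met by 9379 EPSC peaks (77.0%) and by 28063 MEF peaks (73.5%). The blocks come from stem cells, so 6 of the 12 MEF markers chosen to check the label, Col1a1 and Thy1 among them, had no block. Of the 6 MEF markers with a block, 0 had an EPSC peak and 4 had a MEF peak. Col5a1, a fibrillar collagen gene, had 0 EPSC and 15 MEF peaks, and Fbn1, the fibrillin gene, 0 and 5. Col6a3 and the PDGF receptor gene Pdgfra each had 0 and 2. Of 10 EPSC markers, 6 had an EPSC peak (Sox2, Esrrb, Klf4, Zfp42, Lin28a and Cdh1) and 1, Klf4, had a MEF peak. Nanog, Pou5f1, Tfcp2l1 and Epcam had none in either list, as did Vim and Twist1 among the MEF markers. Only 250 bp of Pou5f1 and 100 bp of Vim are listed, so a peak elsewhere in them would be missed. The markers thus went with the labels wherever a marker had a peak in just 1 list. A list of endothelial, blood and neural genes was read for other cells. Of its 11 nameable genes, EPSC marked 2 (Pecam1 with 2 peaks and Ncam1 with 3) and MEF marked 1 (Ncam1 with 14, or 1 at equal numbers).

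With the full lists and a 1-bp overlap, most EPSC peaks were also marked in MEF, and most MEF peaks were not marked in EPSC. A MEF peak overlapped 7553 of the 12183 EPSC peaks by at least 1 bp (62.0%, Wilson 95% interval 61.1 to 62.9). An EPSC peak overlapped 7087 of the 38205 MEF peaks (18.5%, 18.2 to 18.9). Such peaks are called met. At equal numbers 4406 EPSC peaks (36.2%, 35.3 to 37.0) and 3975 MEF peaks (32.6%, 31.8 to 33.5) were met. Most EPSC peaks were thus unmet in that setting, so the majority met depends on the longer MEF list. Cutting both lists to the same number of their own highest peaks gave lower met shares in the shorter cuts. Among the top 1000 of each list 18.4% of EPSC peaks (16.1 to 20.9) and 18.2% of MEF peaks (15.9 to 20.7) were met, and among the top 6000 29.8% and 27.8%. The shared part thus grew as both lists were lengthened together. Longer lists hold more peaks to meet by construction, so this growth does not show that strong peaks were shared less.

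Read against the whole other list, the order ran the other way. In the highest 10% of the EPSC list by -log10 q, 71.9% of peaks (69.3 to 74.3) were met in MEF, against 53.8% (51.0 to 56.6) in the lowest 10%. In the highest 10% of the MEF list, 45.6% (44.1 to 47.2) were met in EPSC, against 8.14% (7.32 to 9.05) in the lowest. The met share thus fell further from top to bottom in the MEF list than in the EPSC list. Median peak length was 351 bp in the highest and 207 bp in the lowest 10% of the MEF list. For EPSC these medians were 190 and 192 bp. A longer peak meets another by 1 bp more easily, and how much of the fall goes with length was not tested.

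**Figure D1:**
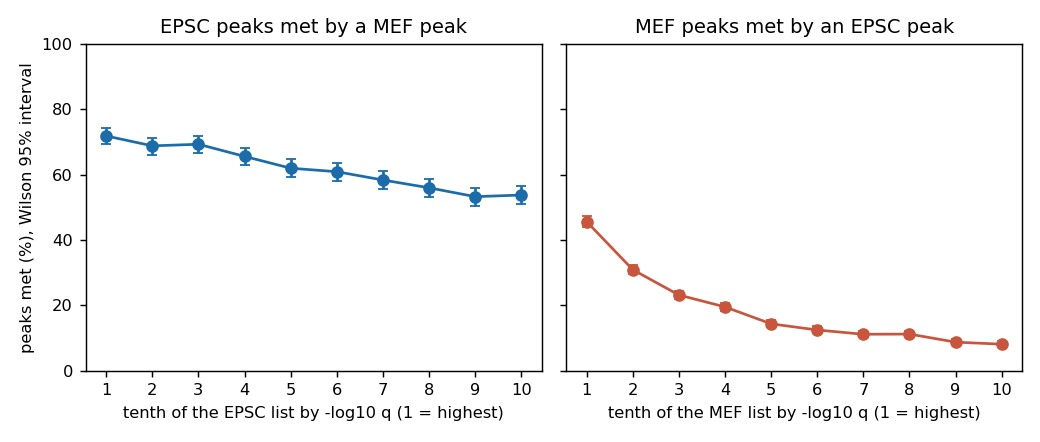
Share of peaks met in the other cell type (y axis, percent) by steps of 10% of the list ranked by -log10 q (x axis, 1 = highest), EPSC list on the left and MEF list on the right; bars are Wilson 95% intervals over peaks. The EPSC share runs between 53.3% and 71.9%, and the MEF share declines from 45.6% in the highest step to 8.14% in the lowest.

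Overlapping peaks were compared in their summits and lengths. Between an EPSC peak and the MEF peak it overlapped most, the summits lay a median of 24 bp apart, and 61.6% of the pairs had them within 50 bp. Pairs were picked for overlap, which limits that distance. The MEF peak was the longer one in 79.2% of pairs, with medians of 261 bp for the EPSC and 361 bp for the MEF peak. EPSC peaks that were not met were short, at a median of 191 bp, and 11.0% of them were exactly 100 bp long, against 2.44% of those met. Over the lists as a whole the medians were 237 bp in EPSC and 267 bp in MEF, and peaks above 1000 bp made up 6.25% and 6.79%.

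The longest EPSC peaks ran over several kb. The first, 9779 bp at chr15:76002532-76012310, lay in Plec, the gene of the cytoskeletal linker plectin, and MEF had a 10839-bp peak at chr15:76001563-76012401 there. Others in EPSC were 8059 bp in Spen, 7323 bp in Zfp292 and 6892 bp in the proliferation gene Mki67. Among the longest in MEF was a peak of 11931 bp in Zfp469.

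By -log10 q, the strongest named MEF peaks with no EPSC peak lay in genes of the cytoskeleton and matrix. The first was at chr19:9076139-9081757 in Ahnak, a giant scaffold gene (5619 bp, -log10 q 18877, 13.2-fold by the authors' value). Others were in Fbln2, the fibulin-2 gene, at chr6:91183062-91184404 (4499, 5.26-fold), a second stretch of Plec at chr15:76018006-76019880 (3675) and Ccn1, a matrix protein gene induced by serum, at chr3:145312148-145312464 (2390). Fold and -log10 q are the authors' values and rank peaks within 1 list.

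The strongest named EPSC peaks with no MEF peak were of another kind. Rn45s, the ribosomal RNA precursor, came first at chr17:39981059-39981283 (-log10 q 7436, but 1.49-fold), then a 100-bp peak in Zfp608 at chr18:55055060-55055159 (5842, 35.0-fold) and 1 in Ppp1r14a (1360, 2.22-fold). Mid1, the midline ubiquitin ligase gene, followed at chrX:166427604-166428514 (814, 9.04-fold), and Peg10, an imprinted retrotransposon-derived gene needed in the placenta, at chr6:4709182-4710144 (398, 9.72-fold). The 5 strongest EPSC peaks that no MEF peak met at all had -log10 q values from 22083 to 132002 and lay outside the listed exons. All 5 were under 210 bp with folds from 2.77 to 3.89. The strongest met EPSC peak, at chr16:57391226-57391852, also had no name, and the strongest named one lay in Arhgap21 at chr2:20821474-20821872 (75130 in EPSC and 11252 in MEF, 83.9-fold and 23.0-fold).

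Gene by gene, 3034 of the 11139 nameable genes (27.2%) had an EPSC peak and 4415 (39.6%) a MEF peak. Both cell types marked 2348 genes (21.1%), EPSC alone 686 (6.16%) and MEF alone 2067 (18.6%). The shared genes were 77.4% of the EPSC genes and 53.2% of the MEF genes. At equal numbers 1942 genes had a MEF peak (17.4%), 1672 were marked in EPSC alone (15%), 1362 in both (12.2%) and 580 in MEF alone (5.21%). The order of the 2 one-sided classes thus turned with the length of the MEF list. Shared genes mostly shared places too: in 2052 of 2348 (87.4%, 86.0 to 88.7) at least 1 EPSC peak was met, in 1523 every EPSC peak was met, and in 296 none was.

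Within shared genes MEF usually had more peaks. The median was 2 in EPSC and 5 in MEF, with more EPSC peaks in 239 genes (10.2%), more MEF peaks in 1729 (73.6%) and as many in 380. At equal numbers the medians were 3 and 3, with more EPSC peaks in 431 genes (31.6%) and more MEF peaks in 638 (46.8%). Genes marked in EPSC alone carried few peaks: 471 of the 686 had just 1. Of the 2067 genes marked in MEF alone, 805 had just 1.

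**Figure D2:**
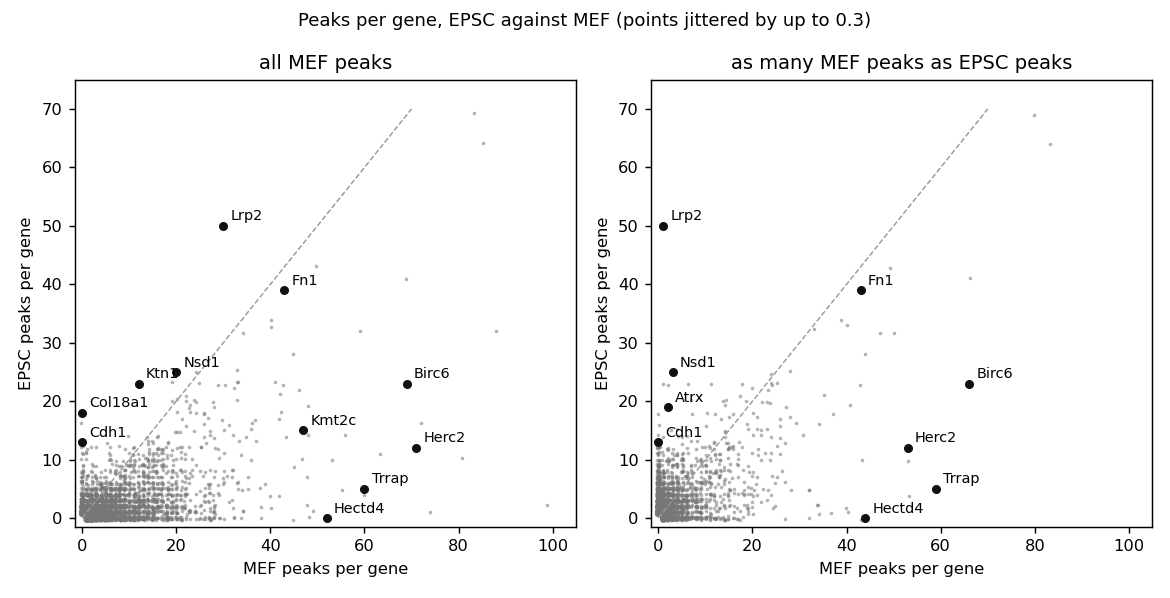
Peaks per gene in EPSC (y axis) and MEF (x axis) for genes with a peak in either list, with all MEF peaks on the left and equal numbers on the right; each point is a gene, slightly jittered, the dashed line marks equal counts and named genes are in black. Lrp2 stays above the line with 50 EPSC peaks against 30 MEF peaks, or 1 at equal numbers, and Trrap far below it with 5 against 60, or 59.

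Of the 8 genes with the most EPSC peaks among those with no MEF peak, all had at least 10. Col18a1, the gene of a basement membrane collagen, had 18 EPSC peaks (highest 9.12-fold), and the sorting receptor gene Sorl1 had 16 (14.5-fold). Cdh1, the epithelial cadherin, had 13 (6.32-fold), with the strongest at chr8:109187583-109187926. All 3 had 0 peaks in MEF. The laminin chain genes Lama5 and Lama1 had 12 and 11, the receptor phosphatase gene Ptprf 12, the glycosyltransferase gene B4galnt3 11 and the desmosomal cadherin Dsg2 10. These genes thus had a double-digit number of EPSC peaks beside none in the longer MEF list. E14 stem cells at the same number of nuclei had peaks in 7 of these 8 genes, from 3 in B4galnt3 and Lama5 to 14 in Sorl1, and 0 in Ptprf.

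On the MEF side the counts were higher, and the genes were large. Hectd4, a giant ubiquitin ligase gene, had 52 MEF peaks (12.0-fold), Dock5, a guanine exchange factor gene, 48 (13.0-fold) and Myof, the myoferlin gene of membrane repair, 45 (8.56-fold), all with 0 in EPSC. The lipid transfer gene Vps13a had 38 (30.3-fold), the translation stress gene Gcn1 34, the guidance ligand gene Slit2 32 (18.3-fold), the lysosome gene Lyst 32 and the semaphorin receptor gene Plxna2 30. At equal numbers Hectd4 still had 44, Myof 43, Slit2 32 and Plxna2 27, while Gcn1 had 17, Dock5 16, Vps13a 5 and Lyst 4. The MEF-only marking of Hectd4, Myof, Slit2 and Plxna2 thus lay mostly among the strong MEF peaks, and that of Dock5, Vps13a and Lyst mostly among weaker ones.

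Some genes were marked in both with a lopsided count. Lrp2, the gene of megalin, an endocytic receptor of absorptive epithelia and extraembryonic endoderm, had 50 EPSC peaks (23.1-fold) and 30 MEF peaks (14.0-fold). All but 1 of its MEF peaks were too weak for the equal-number list. The kinesin adaptor gene Ktn1 had 23 EPSC and 12 MEF peaks, or 1 at equal numbers, and the histone methyltransferase gene Nsd1 25 and 20, or 3. Pcm1, a centriolar satellite gene, had 23 and 19, or 2, the nuclear pore gene Tpr 23 and 30, or 6, and the chromatin remodeller gene Atrx 19 and 23, or 2. For Tpr and Atrx the direction therefore depends on the list length.

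In the other direction Trrap, a scaffold of histone acetyltransferases, had 5 EPSC and 60 MEF peaks, of which 59 remained at equal numbers. The autophagy adaptor gene Wdfy3 had 4 and 60 (53 at equal numbers), the endocytic receptor gene Lrp1 10 and 53 (53), the ubiquitin ligase genes Birc6 and Herc2 23 and 69 (66) and 12 and 71 (53), and Rnf213 14 and 56 (55). Every EPSC peak of these 6 genes was met by a MEF peak. MEF marking here covered the EPSC marking and went beyond it. Fn1, the fibronectin gene, was the nearest to balanced among the matrix genes named, with 39 EPSC and 43 MEF peaks, 43 at equal numbers, and all 39 EPSC peaks met.

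**Figure D3:**
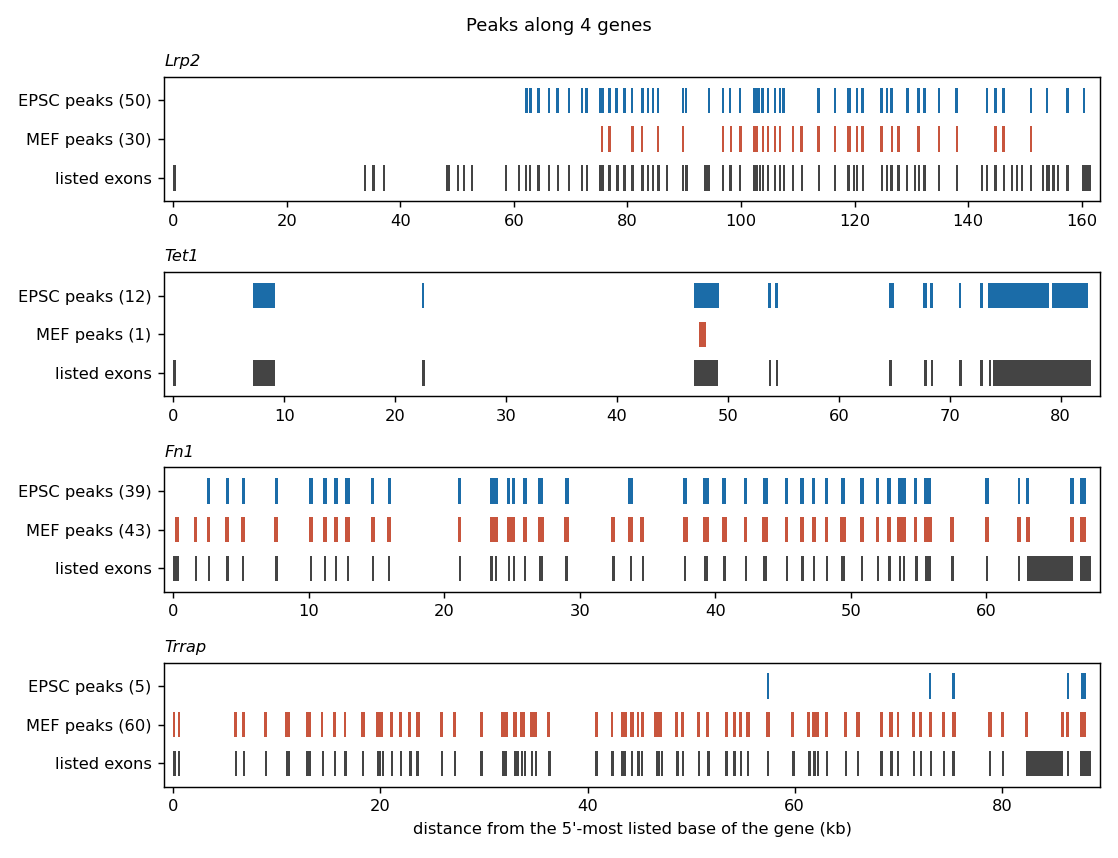
Peaks along Lrp2, Tet1, Fn1 and Trrap, drawn to scale as distance from the 5′-most listed base (x axis, kb) with a minimum drawn width, EPSC above MEF above the listed exon stretches. Fn1 has 39 EPSC and 43 MEF peaks, mostly 1 per exon in both; Trrap has 5 EPSC peaks towards its 3′ part and 60 MEF peaks along its whole length; Tet1 has 12 EPSC peaks and 1 MEF peak.

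Peaks were counted for a gene only where they met a listed exon stretch, so their place on exons follows from the naming. The kind of listed stretch they met differed between the lists. Named MEF peaks that were not met lay in listed exon stretches of a median 151 bp, and 20.2% (19.7 to 20.7) of them in stretches of at least 400 bp. Of named EPSC peaks that were not met, 52.7% (50.8 to 54.6) lay in such long stretches, with a median of 547 bp. Met peaks lay between, at 45.0% (43.8 to 46.2) for EPSC and 42.4% (41.2 to 43.7) for MEF. A listed stretch is the union of the overlapping exon blocks of a gene and can be part of an exon.

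The 3′-most listed stretch of a gene held 41.6% (39.6 to 43.6) of unmet and 26.2% (25.2 to 27.3) of met EPSC peaks. For MEF it held 24.7% (23.6 to 25.7) of met and 9.50% (9.11 to 9.91) of unmet peaks. Only genes with at least 3 listed stretches entered this count. The 5′-most stretch held 3.58% of unmet and 3.20% of met EPSC peaks, and 3.29% of met and 7.37% of unmet MEF peaks. Unmet MEF peaks covered at least 90% of their stretch in 75.9% of cases, against 31.3% for unmet EPSC peaks. At equal numbers the order was the same: 49.7% of unmet EPSC and 17.7% of unmet MEF peaks lay in long stretches, and 37.3% and 5.43% in the 3′-most one. A median of 99.2% of the length of an unmet EPSC peak and 58.8% of that of an unmet MEF peak lay in the stretch. Unmet MEF peaks thus mostly spanned short listed stretches and ran past their ends, while unmet EPSC peaks were split about evenly between long and shorter stretches.

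**Figure D4:**
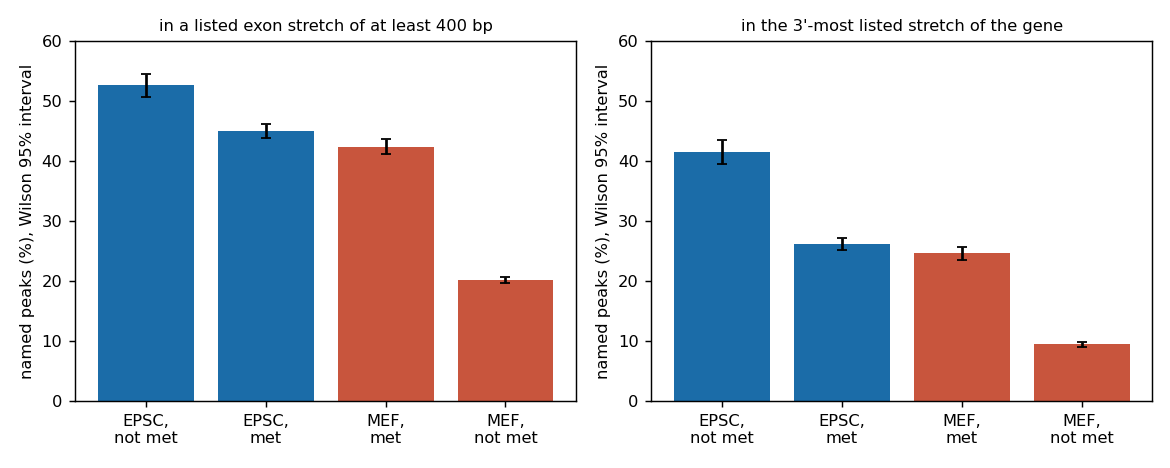
Share of named peaks (y axis, percent) in listed exon stretches of at least 400 bp (left) and in the 3′-most listed stretch (right), for EPSC peaks not met and met and for MEF peaks met and not met; bars are Wilson 95% intervals over peaks. Unmet MEF peaks stand lowest in both panels, at 20.2% and 9.50%.

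Genes with many listed stretches held a larger part of the MEF list. In the 861 genes with 21 or more stretches there were 3921 EPSC and 13143 MEF peaks, 3.35 MEF peaks for each EPSC peak. In the 4220 genes with 1 to 2 stretches there were 459 and 1082, a ratio of 2.36. At equal numbers these ratios were 1.45 and 0.63, so EPSC had more peaks in genes with few listed stretches and MEF in genes with many. The number of listed stretches reflects what the stem cell files list as well as the gene.

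Gene lists are read against all nameable genes, of which 27.2% had an EPSC peak, 39.6% a MEF peak and 17.4% a MEF peak at equal numbers, with 6.16% in EPSC alone and 18.6% in MEF alone. These shares give 1.46 MEF genes for each EPSC gene, and 0.64 at equal numbers. A lean to MEF in the full lists, or to EPSC at equal numbers, is therefore the rule. Naive pluripotency genes were marked mostly in EPSC, in 72.2% of members against 36.1% in MEF. Of 36 nameable members, 26 had an EPSC peak and 13 a MEF peak, with 14 in EPSC alone, 12 in both and 1, Spp1, in MEF alone. Median peaks per member were 2 in EPSC and 0 in MEF, against 0 and 0 over all nameable genes. Tet1, a methylcytosine oxidase, had 12 EPSC peaks (19.5-fold), the strongest 3308 bp at chr10:62267583-62270890, and 1 MEF peak (6.90-fold). Jarid2, a Polycomb cofactor, had 6 and 0, the RNA-binding ubiquitin ligase gene Trim71 3 and 0, and L1td1, a transposon-derived RNA-binding gene, 2 (14.1-fold) and 0. Sox2 and Esrrb had 2 EPSC peaks each and 0 in MEF.

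A few members of the network were marked more in MEF. Il6st, the shared co-receptor of LIF-type cytokines, had 4 EPSC and 16 MEF peaks, Stat3 1 and 5, and Rif1, a replication timing factor, 18 and 26. Tbx3 had 5 and 8. Klf4 had 2 EPSC peaks (3.68-fold) and 3 MEF peaks (9.56-fold). At equal numbers Il6st kept 16 and Klf4 3, but Rif1 had 7, Tbx3 3 and Stat3 0, each below its EPSC count. With equal numbers the list as a whole had 8 members in MEF beside 26 in EPSC, 19 of them in EPSC alone.

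Epithelial adhesion and polarity genes were divided. Of 27 nameable members 13 had an EPSC and 10 a MEF peak, with 6 in EPSC alone and 3 in MEF alone (7 and 2 at equal numbers). There were 0.77 MEF members for each EPSC member, against 1.46 over all nameable genes. At equal numbers the ratio was 0.62, near the 0.64 over all nameable genes. With peaks of -log10 q of at least 20 alone, MEF had 2 more members than EPSC. Cdh1, Dsg2 and the desmoplakin gene Dsp (8 EPSC peaks) were marked in EPSC alone. Celsr1, a planar polarity cadherin, had 11 EPSC peaks, among them the 239-fold one at chr15:85729506-85731165, and 1 MEF peak. Catenin and junction scaffold genes ran the other way: Ctnnd1 had 0 EPSC and 15 MEF peaks, Ctnna1 3 and 11, and Tjp1 12 and 21. At equal numbers Tjp1 had 10 MEF peaks, below its EPSC count, and the other 2 genes stayed above theirs. Fat1, a giant cadherin gene named here to complete the family, had 25 EPSC peaks (20.5-fold) and 24 MEF peaks (63.9-fold), all 24 at equal numbers. The cadherin genes named here thus ranged from EPSC alone to nearly even.

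The fibroblast and matrix list leaned to MEF, with 34.5% of members marked in EPSC and 82.8% in MEF. Of 29 nameable members 10 had an EPSC and 24 a MEF peak, with 2 in EPSC alone, 8 in both and 16 in MEF alone (9 at equal numbers). The 2 EPSC-only members were the laminin genes Lama1 and Lama5. Fbln2 had 0 EPSC and 15 MEF peaks and the laminin gene Lamb1 5 and 27, while its partner chain gene Lamc1 had 20 and 24. Nid1, which encodes the laminin-binding nidogen, had 5 and 20. Laminin subunits of 1 trimer were thus marked with different balances.

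Mesenchymal transcription factors and cadherins had an EPSC peak in 5 of 18 members and a MEF peak in 13, with 0 in EPSC alone and 8 in MEF alone. MEF alone thus held 44.4% of the list, against 18.6% of all nameable genes. There were 2.6 MEF members for each EPSC member, against 1.46 over all nameable genes. At equal numbers 5 members had an EPSC and 6 a MEF peak, a ratio of 1.2 against 0.64. Just 1 of the 18 was then in MEF alone, beside 5.21% of all nameable genes. Nfib had 1 EPSC and 14 MEF peaks, Meis2 0 and 8, Tcf4 9 and 17, and Zeb1, a repressor of Cdh1, 2 and 9. At equal numbers Nfib had 6 and Zeb1 3 MEF peaks, while Tcf4 had 3, below its EPSC count, and Meis2 0. Cdh2 had no exon block. Actin cytoskeleton and serum response genes had an EPSC peak in 18 of 30 and a MEF peak in 23, with 0 in EPSC alone and 5 in MEF alone. MEF alone thus held 16.7% of the list, near the 18.6% over all nameable genes, and the list gives no lean to MEF beyond theirs with the full lists. At equal numbers by -log10 q, 21 members had a MEF peak. That is 1.17 MEF members for each EPSC member, against 0.64 over all nameable genes, a lean to MEF in that setting. Ranked by fold at equal numbers, EPSC had 7 more members than MEF. The myosin genes Myh9 and Myh10 had 14 and 16 EPSC peaks beside 32 and 36 MEF peaks. The integrin gene Itgav had 4 and 29.

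Growth factors and stress switch on the immediate early genes, of which EPSC marked 5 of 18 and MEF 15. With the full lists 0 were in EPSC alone and 10 in MEF alone; at equal numbers 2 and 8. Klf6 and the phosphatase genes Dusp1 and Dusp5 had 0 EPSC peaks and 4, 4 and 3 MEF peaks, and Egr1 had 1 and 3. Ranked by fold at equal numbers, the order turned and EPSC had 3 more members. RNA induced during handling cannot be told apart from cell type, since the nuclei were prepared differently.

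In the Hippo and TGF-beta list 15 of 32 members had an EPSC and 26 a MEF peak, with 2 (Acvr2b and Nodal) in EPSC alone and 13 in MEF alone. At equal numbers 17 had a MEF peak. That is 1.73 MEF members for each EPSC member, against 1.46 over all nameable genes, and 1.13 against 0.64 at equal numbers. Nodal, the ligand that stem cells make themselves, had 2 EPSC peaks and 0 in MEF. Of the activin receptors, Acvr2b had 8 and 0, Acvr2a 0 and 9 and Acvr1 0 and 10, while Acvr1b, named to complete them, had 4 and 4 (0 in MEF at equal numbers). The Hippo transducer gene Tead1 had 12 and 11, the kinase gene Lats1 1 and 8 and the junction protein gene Amotl1 1 and 11. The 2 type II activin receptor genes were thus marked in opposite cell types, though Acvr2a had 0 peaks in the equal-number list.

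In the Wnt list 17 of 35 members had an EPSC and 24 a MEF peak, 3 in EPSC alone and 10 in MEF alone. The ratio of 1.41 MEF members for each EPSC member was near the 1.46 over all nameable genes. At equal numbers MEF also had 17. That is 1 MEF member for each EPSC member, against 0.64 over all nameable genes, a lean to MEF in that setting. Ranked by fold at equal numbers, EPSC had 3 more members. Axin2, a feedback target of the pathway, had 3 EPSC peaks (11.1-fold) and 0 in MEF, while its paralogue Axin1 had 1 and 9. The receptor gene Ror2 and the secreted inhibitor gene Sfrp1 each had 2 and 0. Lrp5 had 4 and 20, Gsk3b 3 and 15, and the tankyrase gene Tnks2 12 and 23. At equal numbers Gsk3b had 2 MEF peaks, below its EPSC count.

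**Figure D5:**
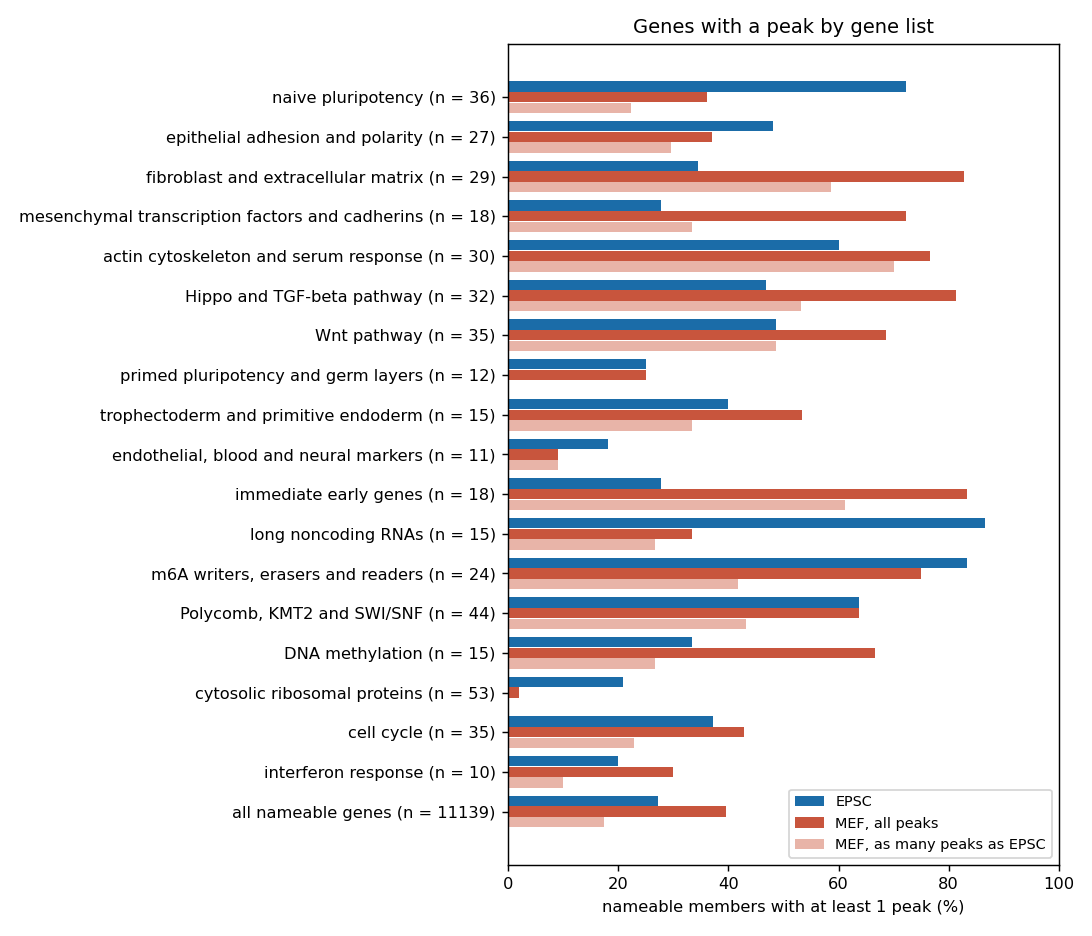
Share of nameable members with at least 1 peak (x axis, percent) by gene list, for EPSC, all MEF peaks and equal numbers of MEF peaks; n is the number of nameable members and the lowest group is all nameable genes. Long noncoding RNAs, ribosomal protein and naive pluripotency genes have more members marked in EPSC at either length; fibroblast and immediate early genes have fewer.

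RNA of the m6A machinery itself was marked in both cell types. Of 24 nameable members 20 had an EPSC and 18 a MEF peak, 18 in both, 2 in EPSC alone and 0 in MEF alone. These are 83.3% and 75% of members, against 27.2% and 39.6% of all nameable genes. At equal numbers 10 were in both and 10 in EPSC alone. There were 0.9 MEF members for each EPSC member, or 0.5 at equal numbers. Over all nameable genes the ratio also fell, from 1.46 to 0.64. Both genes in EPSC alone with the full lists encode nuclear ribonucleoproteins, Hnrnpa2b1 with 6 peaks and Hnrnpc with 1. The writer subunit genes Virma and Zc3h13 had 5 and 9 EPSC peaks beside 21 and 14 MEF peaks, the adaptor genes Rbm15 and Rbm15b 2 beside 1 each, and the reader gene Igf2bp1 2 beside 8. At equal numbers Virma kept 16 MEF peaks, while Zc3h13 had 3 and Igf2bp1 0, below their EPSC counts. Mettl3, with 550 listed bp, had none in either list.

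Polycomb, KMT2 and SWI/SNF genes had 28 of 44 members marked in each cell type, 23 in both, 5 in EPSC alone and 5 in MEF alone. MEF alone thus held 11.4% of the list, against 18.6% over all nameable genes. At equal numbers MEF had 19, or 0.68 MEF members for each EPSC member, near the 0.64 over all nameable genes. The large subunit genes had more MEF peaks: Kmt2c 15 in EPSC and 47 in MEF, Kmt2a 16 and 31, Smarca4 2 and 25, and Arid1b 2 and 21. Polycomb repressive complex genes named here ran the other way, with Mtf2 at 7 and 3, Ezh2 at 4 and 2 and Jarid2 at 6 and 0. DNA methylation genes had 5 of 15 members marked in EPSC and 10 in MEF, 0 in EPSC alone and 5 in MEF alone. At equal numbers EPSC had 1 more member than MEF. There were 2 MEF members for each EPSC member, or 0.8 at equal numbers, against 1.46 and 0.64 over all nameable genes. Dnmt1, the maintenance methyltransferase gene, had 4 and 27, Tet2 7 and 5 and the imprint protector gene Zfp57 2 and 1.

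Where they had a peak, long noncoding RNAs and ribosomal protein genes had it chiefly in EPSC. An EPSC peak was found in 86.7% of the noncoding RNAs, against 27.2% of all nameable genes. Ribosomal protein genes lay below that background, with 20.8% marked in EPSC. In MEF the shares were 33.3% and 1.89%, against 39.6% of all nameable genes. Of 15 nameable noncoding RNAs 13 had an EPSC and 5 a MEF peak, 8 in EPSC alone and 0 in MEF alone, with 4 in MEF at equal numbers. The imprinted RNAs Rian and Meg3 had 7 (17.8-fold) and 2 EPSC peaks and 0 in MEF, and the snoRNA host gene Snhg5 1 (20.8-fold) and 0. Tug1 had 4 and 5 and Neat1 3 and 4. Cytosolic ribosomal protein genes had an EPSC peak in 11 of 53 and a MEF peak in 1, with 10 in EPSC alone and 0 in MEF alone; none was in the equal-number MEF list. Rpl3 had 2 EPSC peaks (8.19-fold), Rpl9 2 (6.87-fold), and Rps12 (11.5-fold) and Rpl30 1 each. Ribosomal protein genes have many processed copies and some host snoRNAs, and how reads were shared among them is not given in the sources used here. Both lists lean away from the full-list background, in which more genes had a MEF than an EPSC peak.

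Cell cycle genes had an EPSC peak in 13 of 35 members and a MEF peak in 15, and at equal numbers EPSC had 5 more members than MEF. There were 1.15 MEF members for each EPSC member, or 0.62 at equal numbers, against 1.46 and 0.64 over all nameable genes, so the turn is that of the background. Ccnd1, the cyclin D1 gene, had 0 and 8, its kinase partner gene Cdk6 0 and 6, Mdm2 1 and 11 and E2f3 2 and 7. Trp53, the inhibitor gene Cdkn1a and the checkpoint gene Mad2l1 had 1 EPSC peak each and 0 in MEF. The cyclin D1 and Cdk6 genes were thus marked in MEF alone, though Cdk6 had 0 peaks at equal numbers.

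Trophectoderm and primitive endoderm genes had a peak in 6 of 15 members in EPSC and 8 in MEF, with 3 in EPSC alone (Lama1, Peg10 and Eomes) and 5 in MEF alone. At equal numbers, by either ranking, EPSC had 1 more member. The full-list ratio of 1.33 MEF members for each EPSC member was near the 1.46 over all nameable genes, which also turned at equal numbers. Peg10 had 4 EPSC peaks and 0 in MEF, and Eomes 1 and 0. Sparc had 0 and 4. Lrp2, Lamb1 and Lamc1 were the members marked in both.

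Other libraries of the study give readouts that did not enter the choice of these peaks. E14 stem cells at 100K nuclei, the line EPSC carry as their label, had 8052 peaks. They met 43.5% (42.1 to 45.0) of the EPSC peaks that MEF lacked and 44.8% (43.7 to 45.9) of the EPSC peaks that MEF had. Of the MEF peaks they met 46.8% (45.7 to 48.0) of those met in EPSC and 2.97% (2.79 to 3.16) of those not met. By gene, an E14 peak was found in 44.3% (40.6 to 48.1) of the EPSC-only genes, 64.2% (62.2 to 66.1) of the shared genes and 8.56% (7.43 to 9.85) of the MEF-only genes. MEF peaks without an EPSC partner were thus rarely met by this E14 list, which is itself shorter than either list.

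The wild-type C57BL/6 stem cell list, made with a MilliporeSigma antibody, supplies part of the exon blocks used for names. A peak outside the blocks could therefore not meet it, and the shares given first count named peaks alone. It met 88.1% of unmet and 95.4% of met named EPSC peaks. Of named MEF peaks it met 95.3% of the met and 77.5% of the unmet ones. Every share is raised by the way names were given. In the authors' deposited table of those peaks, the median fold over input was 7.33 where unmet EPSC peaks lay, 10.5 for met EPSC peaks, 9.33 for met MEF peaks and 4.33 for unmet MEF peaks, against 3.71 over all 20055. Stem cell peaks under unmet MEF peaks thus had a median nearer to that of all peaks. Over all peaks, named or not, the wild-type list met 49.3% of unmet and 85.7% of met EPSC peaks. The list of Mettl3 KO stem cells met 44.4% and 81.5% of them. For MEF the wild-type list met 54.1% of unmet and 85.6% of met peaks, and the KO list 51.0% and 81.9%. Meeting the wild-type list thus does not show that a place depends on Mettl3.

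In the authors' deposited table of wild-type and Mettl3 KO stem cells, the median log2 change of m6A-CT over input in the KO was -1.13 for the 1259 regions under unmet EPSC peaks and -1.27 for the 9679 under unmet MEF peaks. It was -1.24 for the 3897 under met EPSC peaks and -1.35 over all 33473 regions of the authors' deposited table, which holds mostly regions past its own threshold. The interquartile range over all regions of the authors' deposited table, -1.97 to -0.86, holds the medians of all these classes. Wild-type stem cell input over the listed regions of a gene had a median of 3.12 RPM per kb in EPSC-only genes, 3.70 in shared genes, 1.78 in MEF-only genes and 1.23 in nameable genes with no peak, from RPM values in the authors' deposited table divided by region length. Region by region the order was another one: in the authors' deposited table the median wild-type input was 3.13 RPM per kb under unmet and 6.48 under met EPSC peaks, against 6.82 under met and 7.10 under unmet MEF peaks. The gene and region values thus ran in different directions, and how much of the difference in peaks goes with RNA level was not tested.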

How the data were processed

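Peak lists of EPSC and MEF m6A-CT libraries, and of E14 for comparison, were read as deposited on mm9. Trim Galore, STAR 2.7.2 and MACS2 are named, per the submitters' processing notes. Whether replicates were pooled, and the control of the peak calls, are not given in the sources used here. The deposited lists give a -log10 q per peak, at least 10 in each list, and a fold enrichment at the summit. For C57BL/6 stem cells the authors deposited MeTPeak tables with a fold over input, and an exomePeak2 table with RPM per region and a log2 fold change of Mettl3 KO over wild type, per the file headers.

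Peaks sharing at least 1 bp, without strand, counted as met. Overlaps were computed in Python 3.11.15 with pandas 2.3.3 and tested on simulated intervals. Names came from 135160 exon blocks of the C57BL/6 tables; 11124 of 11139 gene names are current in the RefSeq table of GRCm38.p6, used for names alone. Peaks not on listed exons stay unnamed. RPM was divided by region length. Joined names were split, so a peak can count for several genes.

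With 1 list per cell type and no value per replicate, no test was run; Wilson 95% intervals cover counting error. The genes named are the 8 with most peaks in each cell type alone, the 6 with the largest excess each way among shared genes at equal numbers, up to 4 per list and direction, chosen pluripotency, epithelial and fibroblast genes, cell type markers, and the 5 top peaks per class. Other features were chosen after their values were seen: the top peaks that have names, the longest peaks, and members listed to complete a count. The members and the gene lists were chosen with earlier results of these data known. Alternatives were equal numbers by -log10 q or fold, a -log10 q of at least 20, other overlap rules, peaks without 100-bp ones, other name rules, merged peaks and at least 2 peaks per gene; the top 3000 of each list was added after seeing the data. Sequences under the peaks were not used here. A few genes that the naming rule takes are not reported here.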

Additional observations from a re-analysis of the deposited data

How the results depend on the processing

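The share of EPSC peaks met in MEF was 36.2% at equal numbers by -log10 q, 25.3% at equal numbers by fold, 58.1% with a -log10 q of at least 20 in both lists, 63.9% without 100-bp peaks, 43.4% where the overlap had to cover 50% of both peaks and 25.6% for the top 3000 of each list. The share of MEF peaks met in EPSC was 32.6%, 23.1%, 13.4%, 13.8% and 24.5% under the same settings, leaving out that on 100-bp peaks, which moved it little. Genes marked in EPSC alone numbered 1672 at equal numbers by -log10 q, 1489 by fold, 431 at the stricter -log10 q and 321 with at least 2 peaks. Genes marked in both numbered 1362, 1545, 1229 and 1365, and 264 for the top 3000. Genes marked in MEF alone numbered 580 and 875 at equal numbers, and 319 for the top 3000. Shared genes with more EPSC than MEF peaks numbered 431 and 637 at equal numbers, 111 at the stricter -log10 q and 73 for the top 3000. Fewer MEF peaks enter at equal numbers, by construction.

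The number of marked members, EPSC minus MEF, changed sign for 8 of 18 gene lists. At equal numbers by -log10 q it was 1 for trophectoderm and primitive endoderm, 1 for DNA methylation, 5 for cell cycle and 1 for interferon response genes. By fold it was 7 for actin cytoskeleton, 3 for Wnt, 1 for trophectoderm and primitive endoderm, 3 for immediate early, 1 for DNA methylation and 7 for cell cycle genes. At the stricter -log10 q it was -2 for epithelial genes. Of the other values for gene lists, 24 moved and 19 stayed close to those of the full lists. No paired analysis was possible because the lists hold no values per replicate, and for that reason no replicate could be left out. The depth of the libraries is unknown, so a missing peak in the shorter EPSC list cannot be told apart from a lack of depth.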

Other observations

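Primed pluripotency and germ layer genes were marked in few members of either cell type. Of 12 nameable members, 3 had an EPSC peak (Nes with 2, Zic2 with 1 and Eomes with 1) and 3 others a MEF peak (Dnmt3a with 2, Sall2 with 2 and Gata4 with 1). At equal numbers 0 members had a MEF peak. Interferon response genes had an EPSC peak in 2 of 10 members and a MEF peak in 3. Adar, an RNA-editing enzyme gene, had 2 EPSC and 13 MEF peaks. Eif2ak2, the double-stranded RNA kinase gene, had 0 and 6, and Ddx58, an RNA sensor gene, 0 and 1. Stat2 had 1 EPSC peak and 0 in MEF, and was named after its value was seen to complete the count.

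By chromosome, the share of EPSC peaks met in MEF ran from 50.6% on chromosome 6 to 71.6% on chromosome 1 among the autosomes, and was 56.3% on X. For MEF peaks met in EPSC it ran from 12.1% on chromosome 5 to 23.8% on chromosome 8, and was 20.1% on X.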
